A study of Mus musculus with 11 samples.

Results

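The 9 genes for transcription factors that define striatal projection neurons, which are Bcl11b, Foxp1, Foxp2, Meis2, Isl1, Ebf1, Sp9, Zfp503 and Six3, were followed across 11 RNA-seq libraries of the mouse nucleus accumbens shell. They were chosen by symbol, matched to the gene identifiers of the count table through GENCODE M21, and all 9 of 9 were found among 52550 genes and passed the expression filter that left 15373 genes. The question put to them was how steady they were beside the signalling genes of the same neurons. All libraries came from the accumbens shell of mice, punched from frozen sections at 8 weeks of age. The strain was a CBA/C57BL6J/129svEmx mixture. The series concerns weaker signalling through the retinoic acid receptor gene Rarb together with a mutation that causes Huntington disease, which the R6/1 mouse line carries as a transgene of part of the huntingtin gene. No genotype is given with the libraries, so all 11 were left without a group, no groups were compared, and a library is called by its code in the labels.

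Projection neurons make up most of the striatum and of the accumbens. Those of the direct pathway carry dopamine D1 receptors and those of the indirect pathway carry dopamine D2 receptors. Transcription factors made while these neurons are born, many of which stay on in the adult, set which receptors, channels and peptides the neuron makes. In the mouse, Bcl11b, Foxp1 and Meis2 are made by both kinds of projection neuron, Isl1 and Ebf1 act in the direct pathway kind, and Sp9 and Six3 act in the indirect pathway kind.

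Over all 11 libraries the identity factors varied about as much as an ordinary gene, while the signalling genes varied more. The level of the signalling genes also parted the libraries into 2 sets, described below. Spread is the biological coefficient of variation, the relative variation of a gene between libraries beyond counting noise, and differences of genotype, mouse, punch and library preparation all enter it. The 9 factors had a median spread of 0.176, against 0.380 for 24 signalling genes and 0.201 for all genes tested. Only 1 of the 9 factors, Ebf1, had a spread of at least 0.3, against 17 of the 24 signalling genes and 24.8% of all genes. A spread below 0.2 was found for 6 of the 9 factors and for 1 of the 24 signalling genes, Gnal, against 49.7% of all genes. Abundant genes vary less than rare ones, so each gene was also set beside the median spread of its own expression decile. By that measure 7 of the 9 factors and 24 of the 24 signalling genes lay above their decile, Bcl11b (0.161 against 0.160) and Six3 (0.166 against 0.165) by very little. Without library m74, and with deciles taken anew, these counts were 3 of the 9 factors (Foxp2, Ebf1 and Sp9) and 23 of the 24 signalling genes. Library m74 was singled out because 8 of the 9 factors were lowest in it. The lower count of factors without it is thus partly given by that choice.

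Within the sets of libraries, which genes were the steadier changed with the set, with the measure and with m74. The signalling genes were high together in m44, m57, m61, m83 and m89 and lower in the other 6 libraries. Over all 11 libraries the highest level of a gene was 1.85 times its lowest for the median factor and 2.86 times for the median signalling gene. Within the 6 libraries these ratios were 1.72 for the factors and 1.46 for the signalling genes, and without m74 they were 1.38 and 1.40. Within the 5 libraries they were 1.33 and 1.45. The mean log2 deviation of the list ran over 0.755 for the factors and 0.192 for the signalling genes within the 6 libraries. Without m74 these ranges were 0.361 and 0.0909, and within the 5 libraries they were 0.222 and 0.251. These sets were cut at a gap in the signalling genes themselves, which by itself narrows those genes within each set. The ratios and ranges within the sets are therefore a description and do not decide which genes are steadier. The factors and the lists were chosen with earlier results of these data known, so none of these counts is a test.

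**Figure D1:**
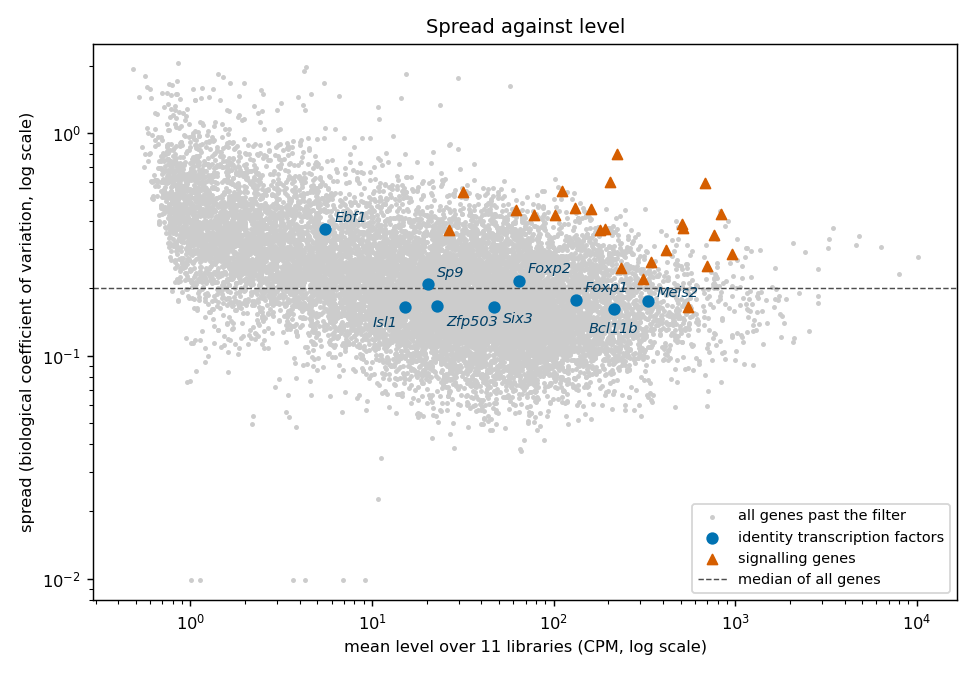
Spread of each gene over the 11 libraries (vertical, log scale) against its mean level in CPM (horizontal, log scale). Blue circles are the 9 identity transcription factors, orange triangles the 24 signalling genes, grey points all 15373 genes past the filter, and the dashed line is the median of all genes, 0.201. Of the factors Ebf1, at 0.370, stands well above the line, while Scn4b, at 0.798, is the highest of the signalling genes.

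Of the markers of striatal projection neurons 9 of 9 had reads in every library. Together they took 1701 CPM (reads scaled to the size of each library) in m74 and 4464 CPM in m44. All 8 cortical and all 7 neuroblast and dividing-cell markers also had reads in every library, so this is a weak check of the tissue label. Whether the punches held the accumbens shell alone was not tested. Library totals ran from 24840981 (m61) to 48825783 (m49) counts. Markers of other cells were also there, since 8 cortical glutamatergic markers summed to between 852 CPM in m115 and 2472 CPM in m61, and 7 neuroblast and dividing-cell markers to between 108 CPM in m57 and 371 CPM in m47. Bcl11b, Foxp1, Foxp2 and Meis2 are also made in the cortex, and Meis2 and Sp9 in newborn neurons, so their counts need not all come from projection neurons. In bulk tissue fewer cells of a type and less RNA per cell cannot be told apart.

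The promoter table of RefSeq (build GRCm38.p6) held 8 of the 9 factors, with 11 start sites in windows of 250 bases before and 50 bases after the start. The GC box GGGCGG, which Sp factors such as Sp9 bind, was found in 3 of these 11 windows and in 35.7% of all 32851 windows, searched on both strands. The CCAAT box, letters CCAAT on either strand, was in 5 of 11 windows and 37.4% of all. The Meis core TGACAG was in 2 of 11 windows, at Foxp1 and Six3, and in 19.2% of all. None of the 11 held the forkhead core GTAAACA (3.65% of all windows), the EBF palindrome, TCCC and GGGA 2 bases apart (0.904%) or the nuclear receptor half-site AGGTCA (16.3%). A match is a description of the sequence and no site of binding. The 250 bases before the start are shown for 1 factor of each pathway, Isl1 of the direct and Sp9 of the indirect pathway, with GC and CCAAT boxes in capitals. The Isl1 stretch is chr13:116309689-116309938 on the minus strand and the Sp9 stretch chr2:73271676-73271925 on the plus strand.
Isl1: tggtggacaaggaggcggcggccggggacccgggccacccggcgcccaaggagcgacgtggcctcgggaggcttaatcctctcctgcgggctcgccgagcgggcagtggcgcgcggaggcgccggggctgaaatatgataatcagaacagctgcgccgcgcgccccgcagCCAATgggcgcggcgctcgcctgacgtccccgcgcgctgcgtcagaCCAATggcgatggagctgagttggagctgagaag
Sp9: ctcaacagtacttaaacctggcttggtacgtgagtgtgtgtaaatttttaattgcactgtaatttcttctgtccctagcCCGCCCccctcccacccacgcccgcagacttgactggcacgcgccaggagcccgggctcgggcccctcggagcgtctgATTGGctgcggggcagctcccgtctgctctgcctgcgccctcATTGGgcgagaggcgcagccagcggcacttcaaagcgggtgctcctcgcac
Both stretches hold 2 CCAAT boxes, read forwards in Isl1 and on the other strand in Sp9, and Sp9 also holds 1 GC box. The windows of Isl1 and Sp9 had 69% and 63.7% G and C, against a median of 52.7% over all windows.

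Bcl11b (ENSMUSG00000048251, chromosome 12, 107910403 to 108003602, minus strand) codes for a zinc finger factor needed for projection neurons to mature. It lay at 141 CPM in m74, 177 CPM in m101 and no lower than 208 CPM elsewhere, up to 262 CPM in m57, around a median of 218 CPM. Its spread of 0.161 was the smallest of the 9 and became 0.103 without m74.

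Foxp1 (ENSMUSG00000030067, chromosome 6, 98925338 to 99522721, minus strand), a forkhead repressor of both kinds of projection neuron, had its lowest level in m74 (83.8 CPM) and its highest in m57 (159 CPM), around a median of 134 CPM. Its spread of 0.178 became 0.119 without m74. The 5 highest values of Foxp1 were those of m57, m44, m89, m61 and m83, at 159, 152, 152, 151 and 139 CPM. These same 5 libraries held the 5 highest values of 16 of the 24 signalling genes, of 1 of the 9 factors (Foxp1 alone) and of 1.67% of all genes tested. The 5 libraries were noticed through the signalling genes, so the counts describe an order and test nothing.

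Foxp2 (ENSMUSG00000029563, chromosome 6, 14901349 to 15441977, plus strand), the close relative of Foxp1 known for its part in vocal learning, was lowest in m74 (38.3 CPM) and highest in m61 (91.5 CPM), around a median of 66.5 CPM. The highest value was 2.39 times the lowest, the second widest ratio of the 9, and the spread was 0.217 (0.160 without m74).

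Meis2 (ENSMUSG00000027210, chromosome 2, 115863064 to 116065839, minus strand), a homeodomain factor of the lateral ganglionic eminence where these neurons are born, was the most abundant. Meis2 had 220 CPM in m74, 265 CPM in m73 and up to 386 CPM, in m49, with a median of 341 CPM. Its highest value was 1.75 times its lowest, the narrowest ratio of the 9, and its spread was 0.176 (0.130 without m74).

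Isl1 (ENSMUSG00000042258, chromosome 13, 116298281 to 116309689, minus strand), a LIM homeodomain factor of direct pathway neurons that cholinergic interneurons also make, was lowest in m61 (10.6 CPM) and highest in m57 (20.2 CPM), around a median of 14.9 CPM. It was the 1 factor whose lowest value was not that of m74, which had 12.7 CPM. The spread was 0.165 with all libraries and 0.164 without m74.

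Ebf1 (ENSMUSG00000057098, chromosome 11, 44617317 to 45008091, plus strand), a helix-loop-helix factor of the direct pathway that vascular mural cells also make, was the least abundant and the least steady. Ebf1 was lowest in m74 (2.42 CPM) and highest in m47 (8.72 CPM), a ratio of 3.60, with a median of 5.50 CPM and from 99 to 372 reads a library. It was high in m47, m115 (7.95 CPM), m49 (7.67 CPM) and m44 (6.54 CPM), and the remaining 7 libraries had 2.42 to 5.63 CPM. Its spread of 0.370 stood at percentile 84.8 of all genes, against a median of 0.244 in its expression decile, and was 0.306 without m74. All 5 vessel markers together ran from 187 CPM in m101 to 238 CPM in m61, with a median of 209 CPM. In m74, where Ebf1 was lowest, they had 200 CPM. Of the 5, 1 was lowest in m74, while Pdgfrb, a gene of mural cells that lay between 21.7 and 28.5 CPM, was highest there. Their part in the Ebf1 level was not tested.

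Sp9 (ENSMUSG00000068859, chromosome 2, 73271925 to 73284706, plus strand), a zinc finger factor needed for indirect pathway neurons, had 2 libraries apart from the rest. It reached 29.3 CPM in m47 and 28.9 CPM in m115 while the remaining 9 libraries had 16.1 to 20.9 CPM, with a median of 19.1 CPM and a spread of 0.209. Neuroblasts of the subventricular zone also make Sp9, and the 7 neuroblast and dividing-cell markers, all read in every library, summed highest in the same 2 libraries, to 371 CPM in m47 and 294 CPM in m115. The next highest sum, 281 CPM in m89, came with the third highest Sp9 level, 20.9 CPM. The part of these cells in the Sp9 level was not tested. Within the 9 other libraries r between Sp9 and the marker score was 0.538 (exact permutation p = 0.133, adjusted p = 0.517) and rho was 0.533 (exact permutation p = 0.148, adjusted p = 0.594), with r = 0.361 when m89 and m74 were also left out. Cir1, on the opposite strand, shares 270 exon bases with Sp9 and had 33.2 to 40 CPM.

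Zfp503 (ENSMUSG00000039081, chromosome 14, 21983959 to 21989601, minus strand), a zinc finger factor of the embryonic striatum also called Nolz1, was lowest in m74 (16.4 CPM) and highest in m57 (30.2 CPM), around a median of 22 CPM and a spread of 0.167. Six3 (ENSMUSG00000038805, chromosome 17, 85613608 to 85629302, plus strand), a homeodomain factor needed for indirect pathway neurons, was lowest in m74 (31.4 CPM) and highest in m44 (55.5 CPM), with a median of 49.9 CPM and a spread of 0.166. Without m74 these spreads were 0.140 and 0.117. The opposite-strand gene Six3os1 shares 106 exon bases with Six3 and had 8.94 to 21.6 CPM. The sources used here do not say whether counting used strand, and the Six3 and Sp9 counts may hold some reads of these neighbours.

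Per kilobase of exon, the scale on which genes can be set side by side, Meis2 (median 28.3 CPM per kilobase) and Bcl11b (26.9) led. Their ranges overlapped, with Meis2 higher in 8 of 11 libraries. Foxp1 (9.73) and Six3 (9.15) followed and overlapped likewise, with Foxp1 higher in 8 of 11. The range of Foxp1 lay wholly below that of Bcl11b. Zfp503 had 5.22 CPM per kilobase, below Six3 in 11 of 11 libraries and above Foxp2 (4.07) in 10 of 11. Sp9 (3.79) and Isl1 (3.77) could not be ordered, since Sp9 was the higher in 4 of 11 libraries, and Foxp2 exceeded Sp9 in 6 of 11. Ebf1 (0.563 CPM per kilobase) lay wholly below every other factor.

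One library, m74, held the lowest value of 8 of the 9 factors, against 8.87% of all genes tested. Its mean log2 deviation over the 9 factors was −0.59, and the next lowest, in m73, was −0.19. The library was not shallow, with 39688539 counts. Of the 17 other transcription regulators of striatal neurons 8 were also lowest in m74, of the 24 signalling genes 5, and of the 7 paralogues past the filter 1. The 7 cholinergic neuron markers summed to 36 CPM in m74, the lowest of the 11 libraries, and the 6 septal and diencephalic markers, of which 4 had reads in every library and Six6 had none, to 28.4 CPM, also the lowest. Its 5 oligodendrocyte markers summed to 3045 CPM, close to the median of 2933 CPM. Whether these moved with the factors through dissection, genotype or cell make-up was not tested. Without m74 the median spread of the 9 factors was 0.140, while that of all genes was 0.198. Because m74 was singled out by its low factor values, this contrast is partly given by the choice of library and is a description only.

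**Figure D2:**
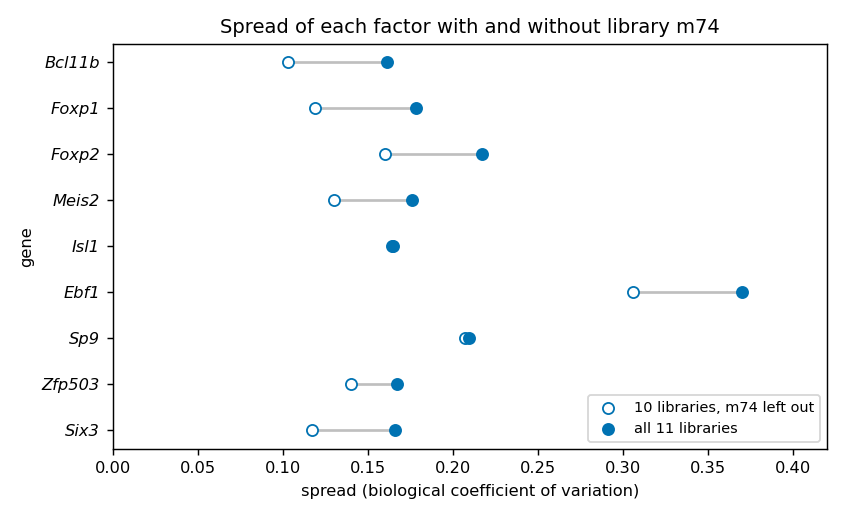
Spread of each factor over all 11 libraries (filled circles) and over 10 libraries with m74 left out (open circles). Leaving out m74 lowered the spread of Bcl11b to 0.103 and of Foxp1 to 0.119, while Isl1 (0.164) and Sp9 (0.207) hardly moved. The library was singled out by its low factor values, so a lower spread without it is partly given by that choice.

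Most signalling genes of the same neurons had a larger spread over the 11 libraries than most factors, with exceptions: Gnal lay below 8 of the 9 factors, and 11 of the 24 signalling genes lay below Ebf1. Among the 16 genes common to both kinds of projection neuron the median spread was 0.370. Hpca, the most abundant, codes for the calcium sensor hippocalcin and ranged from 572 to 1382 CPM. Scn4b, a sodium channel subunit gene, had the largest spread, 0.798, and Gnal, the G protein gene that couples dopamine and adenosine receptors to cyclic AMP, the smallest, 0.165. For the 4 direct pathway genes the median spread was 0.367, from 0.246 for the substance P precursor gene Tac1 to 0.428 for the receptor gene Drd1. Drd1 ranged from 45.1 to 171 CPM, while Isl1 of the same neurons stayed between 10.6 and 20.2 CPM. Ebf1, the other direct pathway factor, was as unsteady as these signalling genes, with a spread of 0.370 against their median of 0.367. For the 4 measured indirect pathway genes the median spread was 0.544, from 0.426 for the receptor gene Drd2 to 0.594 for the enkephalin precursor gene Penk. Penk ranged from 301 to 1321 CPM, while Six3 stayed between 31.4 and 55.5 CPM. The fifth indirect pathway gene listed, Gpr52, was not analysed here.

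**Figure D3:**
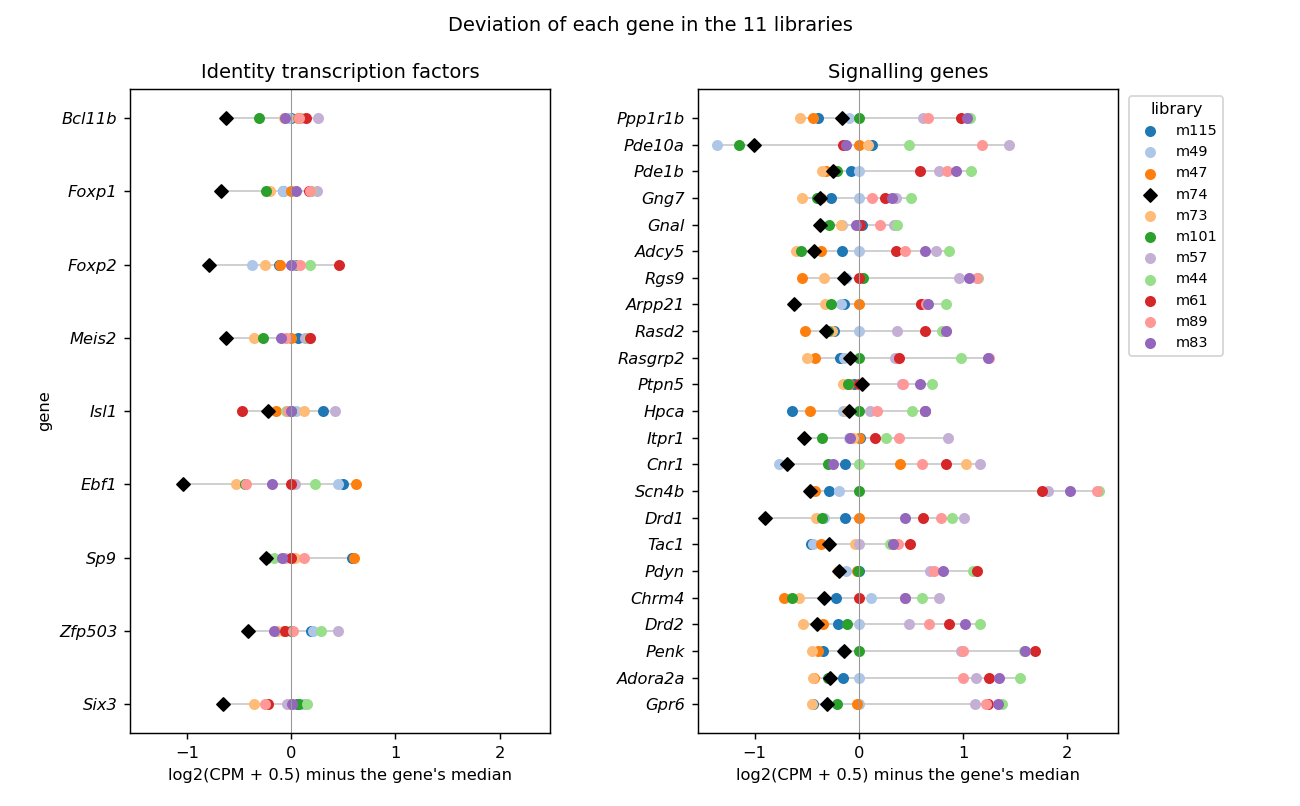
Level of each of the 9 identity factors (left) and 23 of the 24 signalling genes (right) in each library, as log2(CPM + 0.5) minus the gene's median over the 11 libraries, with 1 colour per library. The black diamonds of m74 lie at the left end for 8 of the 9 factors, and the points of most signalling genes reach further to the right than those of any factor.

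Relatives of the factors differed among themselves. Of 12 paralogues 7 passed the filter, with a median spread of 0.214, 1 of them with at least 0.3 and 3 below 0.2. Bcl11a, the paralogue of Bcl11b, was among the steadiest genes of the table, at 114 to 147 CPM, a spread of 0.0710 and percentile 1.54. Foxp4 had a spread of 0.131 (52.6 to 81.6 CPM) and Meis3 of 0.149 (38.3 to 60.6 CPM). Sp8, the paralogue of Sp9 made by neuroblasts, had the largest spread of this list, 0.654, with 16 CPM in m47, 12.7 CPM in m115 and a lowest level of 1.53 CPM in m57. Zfp703, the paralogue of Zfp503, reached 93.6 CPM in m61 and stayed at or below 54.3 CPM elsewhere, so its spread of 0.270 became 0.125 without m61. Foxp3, Isl2, Ebf2 and Ebf3 did not pass the filter. Six6, the paralogue of Six3, had no read in any library, which with a floor of 3 counts allows at most 0.133 CPM in the shallowest library, m61.

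Other transcription regulators of striatal neurons had a median spread of 0.217, between that of the 9 factors and that of the signalling genes. All 17 passed the filter, 4 of them with a spread of at least 0.3 (24.8% of all genes) and 5 below 0.2 (49.7% of all genes). Set beside the median spread of their own expression decile, 14 of the 17 lay above it. Mef2d, an activity-dependent factor, was the most abundant and the steadiest (243 to 349 CPM, spread 0.111), and Ikzf2 the least steady (0.790 to 4 CPM, spread 0.466). Pbx3, which codes for a partner of Meis proteins, lay between 36.2 and 63 CPM with a spread of 0.165. Zfp521, known as an inhibitor of Ebf1, had a spread of 0.359, with its lowest level in m74 (7.42 CPM) and its highest in m115 (20.6 CPM).

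Several of the factors rose and fell together across the libraries. Over 36 pairs, 10 passed an adjusted p of 0.05 by Pearson's r and 1 of these also by Spearman's rho (two-sided permutation tests, Benjamini-Hochberg over the family). Bcl11b and Foxp1 gave the closest relation, with r = 0.949 (permutation p = 2e-05, adjusted p = 0.00072) and rho = 0.909 (permutation p = 0.00029, adjusted p = 0.0104). Their r was 0.822 without the farthest libraries m74 and m101, and r passed under all 16 alternatives computed, from 0.861 to 0.962. By rho the pair did not pass when m73, m101, m44, m74 or m57 was left out (permutation adjusted p from 0.0502 to 0.0677).

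Meis2 entered 5 of the other 9 pairs. With Bcl11b r was 0.869 (permutation p = 0.00106, adjusted p = 0.0136; rho = 0.736, permutation p = 0.013, adjusted p = 0.149), and without m74 and m101 it was 0.586. With Foxp1 r was 0.859 (permutation p = 0.00152, adjusted p = 0.0137; rho = 0.609, permutation p = 0.0511, adjusted p = 0.216), and without m74 and m57 it was 0.660. With Ebf1 r was 0.833 (permutation p = 0.00113, adjusted p = 0.0136; rho = 0.736, permutation p = 0.013, adjusted p = 0.149), and without m74 and m73 it was 0.603. With Zfp503 and Six3 r was 0.783 and 0.733 (permutation adjusted p = 0.0210 and 0.0456), and 0.546 and 0.0131 without m74 and m73.

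The remaining 4 pairs were Foxp1 with Foxp2 (r = 0.826, permutation adjusted p = 0.0202), Ebf1 with Six3 (r = 0.778, permutation adjusted p = 0.0210), Bcl11b with Zfp503 (r = 0.722, permutation adjusted p = 0.0456) and Zfp503 with Six3 (r = 0.714, permutation adjusted p = 0.0456). Without the 2 farthest libraries their r was 0.646, 0.641, 0.607 and 0.630 in that order. For these 4 pairs and the 2 of Meis2 with Zfp503 and Six3, permutation adjusted p for rho lay between 0.149 and 0.244. Library m74 carried most of this: with it left out 1 of the 36 pairs passed by r, Bcl11b with Foxp1 (r = 0.861, permutation adjusted p = 0.0104), whose rho then gave a permutation adjusted p of 0.0601, and the number was 6 without m73 and 6 without m44. Isl1 and Sp9 were in none of the 10 pairs.

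**Figure D4:**
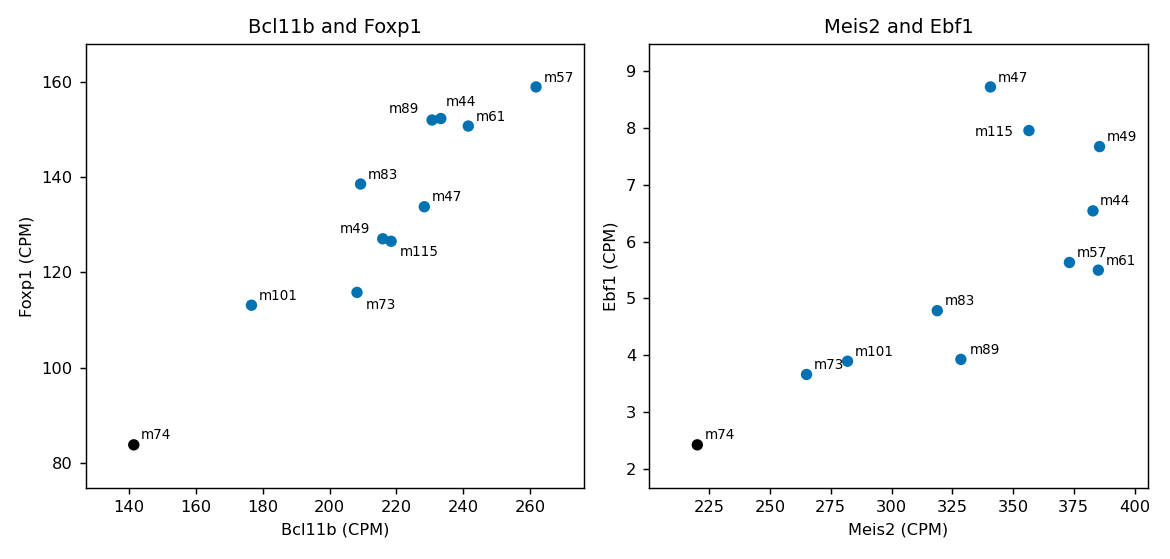
Levels in CPM of Bcl11b against Foxp1 (left) and of Meis2 against Ebf1 (right), with 1 point per library and m74 in black. Bcl11b and Foxp1 run along a line from m74 to m57, while the Meis2 and Ebf1 points spread out above 340 CPM of Meis2.

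Relations with signalling genes could be tested only in part. The mean log2 deviation of the 24 signalling genes fell into 2 separate sets of libraries, so no correlation over all 11 is given, and it was computed within the larger set of 6 libraries (m115, m49, m47, m73, m101 and m74). For Ppp1r1b, Pde10a, Drd1, Tac1, Drd2 and Penk with 8 factors, 0 of 48 relations passed the adjusted p of 0.05 by r or by rho, and 3 had an unadjusted exact permutation p below 0.05 for r. All 3 were with Drd1: Ebf1 (r = 0.883, exact permutation p = 0.00139, adjusted p = 0.0667; rho = 1, exact permutation p = 0.00278, adjusted p = 0.133), Foxp1 (r = 0.956, exact permutation p = 0.00833, adjusted p = 0.2) and Bcl11b (r = 0.905, exact permutation p = 0.0153, adjusted p = 0.244). Without the 2 farthest libraries, which leaves 4, r was 0.743 for Ebf1, 0.644 for Foxp1 and 0.949 for Bcl11b. The smallest exact permutation p that the 720 orders of 6 libraries can give is 0.00139 for r and 0.00278 for rho. Ebf1 with Drd1 reached both and still had adjusted p of 0.0667 and 0.133. No relation could thus pass on its own among 48, and the 0 of 48 does not show that relations were absent. Sp9 was left out here, because its own 2 high libraries lie among these 6.

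**Figure D5:**
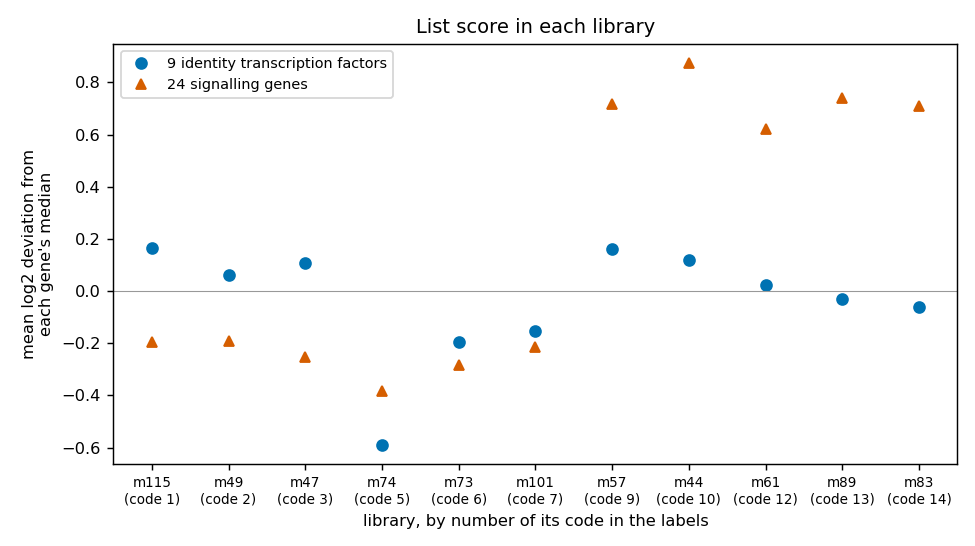
Mean log2 deviation of the 9 identity factors (blue circles) and of the 24 signalling genes (orange triangles) from each gene's median, in each library, ordered by the number of its code in the labels. The factors lie between −0.59 in m74 and 0.17 in m115, and the signalling genes between −0.38 in m74 and 0.87 in m44.

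Rarb, the receptor gene of the series, was lowest in m74 (49.8 CPM) and highest in m44 (101.2 CPM), and 5 of the 9 factors moved with it. This family of 9 relations was added after the values were seen. Foxp1 gave r = 0.870 (permutation p = 5e-04, adjusted p = 0.00414) and rho = 0.855 (permutation p = 0.00153, adjusted p = 0.00828), with r = 0.729 without m74 and m57. Bcl11b gave r = 0.825 (permutation p = 0.00092, adjusted p = 0.00414) and rho = 0.845 (permutation p = 0.00184, adjusted p = 0.00828), with r = 0.705 without m74 and m101. Zfp503 (r = 0.760, permutation adjusted p = 0.0189), Meis2 (r = 0.739, permutation adjusted p = 0.0189) and Foxp2 (r = 0.679, permutation adjusted p = 0.0380) passed by r and not by rho (permutation adjusted p = 0.0687, 0.183 and 0.0687), and their r without the 2 farthest libraries was 0.494, 0.370 and 0.692. Without m74 none of the 9 passed by r. Foxp1 then gave r = 0.779 (permutation adjusted p = 0.0991) and Bcl11b r = 0.686 (permutation adjusted p = 0.102), and both still passed by rho (0.806 and 0.794, permutation adjusted p = 0.0393 for both).

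Markers of other cells were followed in 36 relations, of the 9 factors with the scores of cortical, cholinergic, neuroblast and oligodendrocyte markers. The 3 that passed by r were all with the cholinergic markers, of which 7 of 7 passed the filter and which summed to between 36 CPM in m74 and 108 CPM in m57. Foxp1 gave r = 0.831 (permutation p = 0.00074, adjusted p = 0.0266) and rho = 0.891 (permutation p = 0.00042, adjusted p = 0.0151), with r = 0.767 without m74 and m57. Zfp503 gave r = 0.796 and Bcl11b r = 0.782 (permutation adjusted p = 0.0382 for both), with rho of 0.718 and 0.818 (permutation adjusted p = 0.190 and 0.0535). Their r without the 2 farthest libraries was 0.512 and 0.662. Isl1, which cholinergic interneurons also make, did not pass with these markers (r = 0.468, permutation adjusted p = 0.517; rho = 0.3, permutation adjusted p = 0.725). None of the 36 relations passed by r when m74 or any of m115, m73, m101, m44, m89 and m57 was left out. The score of the cholinergic markers ran from 0.008 in m61 to 0.77 in m57 within the 5 libraries of high signalling score. Within the other 6 it ran from −0.67 in m74 to 0.18 in m115. Whether these relations go beyond that difference between the sets was not tested, nor was the part of cholinergic neurons in these levels.

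Length of transcripts, which differed between libraries, was not tied to the factors at the threshold. The length measure sets the longest 10% of genes against the shortest 10%, as the difference of their median log2 deviations, and it ran from −0.64 in m61 to 0.43 in m57. None of 9 relations passed, and 1 had an unadjusted permutation p below 0.05: Isl1, lowest in m61 and highest in m57, gave r = 0.728 (permutation p = 0.00857, adjusted p = 0.0771) and rho = 0.636 (permutation p = 0.0399, adjusted p = 0.359), with r = 0.481 without those 2 libraries. It passed without m47 (r = 0.859, permutation adjusted p = 0.00396).

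Genes most like each factor in their pattern over the libraries were taken as the 3 of highest r among all genes tested, which describes these libraries and is no test. Bcl11b was followed by Tmem132b (r = 0.984), Arhgap32 (r = 0.9495) and Foxp1, over 11 libraries. Foxp1 had Bcl11b, Cfap300 (r = 0.941) and Tmem132b (r = 0.936). Foxp2 had among its 3 Nptn (r = 0.932) and the calcineurin subunit gene Ppp3ca (r = 0.928). Meis2 had Stim2 (r = 0.951), Id4 (r = 0.927) and Timp3 (r = 0.922), and Isl1 had the gephyrin gene Gphn (r = 0.953), Neb (r = 0.921) and Ogn (r = 0.905). Ebf1 had Pbx3 (r = 0.933), Gabre (r = 0.926) and Klf5 (r = 0.881). Zfp503 had the GABA transaminase gene Abat (r = 0.949), Spry1 (r = 0.914) and Usp29 (r = 0.910), and Six3 had Fam198a (r = 0.874), Cbln4 (r = 0.851) and Zic4 (r = 0.843). Over the 9 libraries without m47 and m115, Sp9 had Dusp6 (r = 0.926), Dtl (r = 0.925) and Gm21798 (r = 0.899). With m74 also left out, r for these genes ran from 0.667 (Six3 with Cbln4) to 0.960 (Bcl11b with Tmem132b). For Six3 with Zic4 it was then 0.779.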

How the data were processed

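The authors deposited raw counts of reads per gene, not normalized, for 11 libraries of poly(A) RNA; the submitters' processing notes name HTSeq 0.6.1, TopHat2 2.0.14, Bowtie2 2.1.0 and the build mm10. Per the labels' protocols libraries were made with a stranded TruSeq kit from tissue punches. Neither the strand setting nor the annotation release is given in the sources used here. Of 52550 gene identifiers 52403 matched GENCODE M21 (GRCm38), the source of names, coordinates and exon lengths (union of all exons).

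The deposited counts were turned into CPM with edgeR 4.0.16 in R 4.3.3, after TMM scaling of the library sizes. A gene was kept if 3 or more libraries reached 1 CPM and its median count reached 10. Spread is the edgeR biological coefficient of variation, fitted on all kept genes with an intercept only and no sharing between genes, and the step was tested on simulated counts. Values are on log2(CPM + 0.5) for relations and scores. A score is the mean log2 deviation of a list's members from their medians.

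Relations used 100000 permutations over 11 libraries, or all orders below 10 libraries, two-sided, with Benjamini-Hochberg adjustment within each family. With 100000 permutations p cannot fall below 1e-05. Values with a gap of over 0.5 of their range and at least 2 libraries on each side were treated as separate sets, and relations were then computed within the larger set where it held at least 6 libraries. Alternatives were DESeq2 1.42.0 size factors, unscaled totals, no filter, shared dispersion, a pseudocount of 2 CPM and each library left out. No labelled batch was found, so nothing could be computed within batches. Nothing says more of the animals than their codes, so the spread may be partly technical. Intervals and floors cover counting error only.

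The factors and gene lists were chosen with earlier results of these data known. Genes named are the 9 factors, the most abundant, most and least variable genes of each signalling and regulator list, all relations past the threshold, the 3 genes most like each factor and genes overlapping a factor; 1 gene is not reported here. Pbx3, Zfp521, Pdgfrb, Rarb and the paralogues given with values were chosen for naming once their values had been seen. The other tools were scipy 1.17.1, numpy 2.4.6, matplotlib 3.10.9 and pandas 2.3.3 in Python 3.11.15.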

Additional observations from a re-analysis of the deposited data

How the results depend on the processing

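The counts of factors at or above a spread of 0.3 stayed at 1 under all alternatives, and those below 0.2 at 6 or 7. The median spread of the factors ran from 0.140 to 0.184 and that of the signalling genes from 0.362 to 0.395 with each library left out, and with shared dispersion they were 0.189 and 0.332. The signalling genes at or above 0.3 numbered 17 to 19 and those below 0.2 numbered 1 or 2 with each library left out. The factors above the median spread of their expression decile numbered 3 to 8 and the signalling genes 23 to 24 with each library left out, which was added after seeing the data, as were the ratios within sets of libraries. Of 135 alternative spreads of single factors 133 stayed within 1.5 times, the others being Bcl11b and Foxp1 without m74. With no expression filter the median spread of all genes was 0.481.

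Relations depended more on single libraries. With each library left out, the pairs of factors that passed numbered 1 to 11, the relations with Rarb 0 to 7, with markers of other cells 0 to 4 and with the length measure 0 to 1. On unscaled totals 1 relation with markers of other cells passed in place of 3, and 1 with the length measure in place of 0, Isl1 (permutation adjusted p = 0.0352). Whether Sp9 was taken over 9 or 11 libraries changed the count with markers of other cells to 4 and no other count; that alternative was chosen after seeing the data. Relations within the 6 libraries were not recomputed with a library left out, since fewer than 6 remain. No paired analysis was possible because no library has a group. Ebf1, with 99 to 372 reads, is the factor that depth limits most.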

Other observations

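Signalling genes fell into 2 separate sets with at least 2 libraries in each. The identity factors did not, though m74 alone lay well below the other libraries. The mean log2 deviation of the 24 signalling genes was 0.72 in m57, 0.87 in m44, 0.62 in m61, 0.74 in m89 and 0.71 in m83. It was −0.19 in m115, −0.19 in m49, −0.25 in m47, −0.38 in m74, −0.28 in m73 and −0.22 in m101. The gap between these sets took 0.648 of the whole range. For the 9 factors the same measure was 0.16 in m57, 0.12 in m44, 0.02 in m61, −0.03 in m89 and −0.06 in m83. It was 0.17 in m115, 0.06 in m49, 0.11 in m47, −0.59 in m74, −0.19 in m73 and −0.15 in m101, and the largest gap with at least 2 libraries on each side took 0.125 of the range. The highest value of the factors was that of m115, a library of the lower signalling set, followed by m57, m44 and m47.

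The 5 libraries of high signalling score carry the code numbers 9, 10, 12, 13 and 14 in the labels, and the other 6 carry 1, 2, 3, 5, 6 and 7. The labels do not explain the numbers, and an order of collection, a batch and a genotype behind them cannot be told apart.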
